A study of Homo sapiens with 6 samples.

Results

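Among the regions that USF2 occupied in both clones of a K562 line overexpressing USF2 and PLAG1-S, 303 of 2409 had no reproducible PLAG1-S peak beside them. These 303 regions were selected on measured values, as clone 4 USF2 peaks that overlapped a clone 5 USF2 peak by 1 bp or more and had no PLAG1-S peak found in both clones within 100 bp, edge to edge. They made up 12.6% of the reproducible USF2 peaks (95% Wilson interval 11.3% to 14.0%, counting error only), which themselves came from a clone 4 list of 9338 USF2 peaks. The remaining 2106 reproducible USF2 peaks, here called co-bound, had a PLAG1-S peak of both clones within that distance. Because the USF2 and PLAG1-S lists of both clones chose the members, every enrichment given for them is a description and carries no test.

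K562 is a human chronic myelogenous leukemia line, and the study asked where the transcription factors USF2 and PLAG1-S, the short form of PLAG1, bind the genome together. Clones #4 and #5 each carried a lentiviral construct from which FLAG-tagged PLAG1-S and USF2 were both overexpressed, so all libraries came from cells with both factors raised and no unmodified cells were compared. Each clone gave a FLAG immunoprecipitation for PLAG1-S, a USF2 immunoprecipitation and an input, with 42.5 M reads per immunoprecipitation and 55 M per input according to the labels, and each line was a single clone. The peak lists held 9338 and 4369 USF2 peaks and 37574 and 29889 PLAG1-S peaks in clones 4 and 5. The USF2 lists ran to q-values of 0.0494 and 0.0477, whereas the PLAG1-S lists stopped at 0.0099 and 0.00974, and 21 of the 303 members had a USF2 q above 0.01 in at least 1 clone.

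USF2 is a basic helix-loop-helix leucine zipper protein that binds as a dimer to the E-box CACGTG, most often close to transcription start sites. PLAG1 is a C2H2 zinc finger protein that recognizes a bipartite G-rich sequence, a G-rich core followed at a short spacing by a run of G. Genes of lysosomes, metabolism and the circadian clock are textbook carriers of E-boxes.

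The sequence at gene starts could be read for the few members that reached one. RefSeq promoter windows, which span 250 bases before and 50 bases after a start in GRCh38.p14, were overlapped by 12 of the 284 members on assembled chromosomes (4.23%), and 4 members had their clone 4 summit in such a window. The following windows are shown because they hold the only E-box met by a member (CTAGE9), the other coding starts with a USF2 summit inside the window (APLP2, and IL4I1 with NUP62, which share a window), and the start of the member with the largest clone 4 fold (H3C13). At H3C13 the peak ended at 149813650, just inside the window, and its clone 4 summit (149813362) lay outside. All windows read 5′ to 3′ on the strand of the gene, and capitals mark the E-box where it is present.
CTAGE9, chr6:131710968-131711267, minus strand: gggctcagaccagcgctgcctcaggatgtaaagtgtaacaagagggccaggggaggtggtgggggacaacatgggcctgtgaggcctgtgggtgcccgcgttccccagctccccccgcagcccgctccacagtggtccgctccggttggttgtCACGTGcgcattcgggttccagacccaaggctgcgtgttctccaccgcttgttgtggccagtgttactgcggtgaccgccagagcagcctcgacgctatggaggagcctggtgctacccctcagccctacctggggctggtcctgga
APLP2, chr11:130070318-130070617, plus strand: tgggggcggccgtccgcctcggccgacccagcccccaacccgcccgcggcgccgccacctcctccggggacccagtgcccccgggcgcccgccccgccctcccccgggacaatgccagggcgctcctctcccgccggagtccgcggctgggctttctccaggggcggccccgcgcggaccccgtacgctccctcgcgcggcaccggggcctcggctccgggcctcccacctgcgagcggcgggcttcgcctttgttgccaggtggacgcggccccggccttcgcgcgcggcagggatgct
IL4I1 and NUP62, chr19:49929455-49929754, minus strand: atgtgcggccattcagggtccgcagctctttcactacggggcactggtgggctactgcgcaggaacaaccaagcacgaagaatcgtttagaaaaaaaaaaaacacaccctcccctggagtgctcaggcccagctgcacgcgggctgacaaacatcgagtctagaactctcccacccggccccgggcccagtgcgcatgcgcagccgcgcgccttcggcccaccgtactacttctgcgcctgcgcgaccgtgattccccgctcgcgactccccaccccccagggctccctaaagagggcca
H3C13, chr1:149813644-149813943, minus strand: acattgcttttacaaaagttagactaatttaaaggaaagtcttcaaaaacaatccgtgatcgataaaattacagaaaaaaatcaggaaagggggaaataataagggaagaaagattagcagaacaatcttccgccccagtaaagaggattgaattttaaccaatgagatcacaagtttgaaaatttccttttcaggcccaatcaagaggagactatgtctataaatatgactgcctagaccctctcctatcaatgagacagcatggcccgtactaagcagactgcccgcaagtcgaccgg

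CTAGE9, a gene of the cTAGE family that lies within ENPP3 on chromosome 6, was the only member whose window held the E-box, which began 97 bases before the annotated start. The clone 4 USF2 peak there (131711048 to 131711234) had a fold enrichment of 3.89 with 23 fragments at the summit, and the overlapping clone 5 peak had a fold of 10.5 with 50 fragments. Fold is the number of fragments over the summit, plus 1, divided by the number expected from the local background, plus 1. The clone 5 value was thus higher than the clone 4 value, and it was the largest clone 5 fold of any member with no PLAG1-S peak in either clone on assembled chromosomes outside the chromosome 22 and chromosome 9 windows described further on. The clone 5 summit lay 20.5 bp from the middle of the E-box and the clone 4 summit 76.5 bp from it. The nearest reproducible PLAG1-S peak was 96296 bp away.

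In all, CACGTG was present in the windows of 1 of 12 members (8.33%), against 652 of 916 co-bound peaks (71.2%) and 7.25% of all 35085 windows of the table. The bipartite PLAG1 consensus, searched on both strands as the core in either of its usual forms, then any 7 bases, then GGG, was found for 2 of the 12 members, both at noncoding RNA genes (LOC105376772 and LOC105378933), for 314 of the co-bound peaks (34.3%) and in 18.5% of all windows. With fewer than 20 members at a window, these shares are given as they are and the groups were not compared by an interval. A match or its absence applies to the letters of these windows alone, and at 8 of the 12 members the clone 4 summit lay outside the window.

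Enrichment at the members was low within the USF2 lists. The median clone 4 fold was 3.76, against 7.42 at co-bound peaks, and in clone 5 it was 3.87 against 5.69. The median summit held 27 fragments in clone 4, against 40 at co-bound peaks, over a local background of 5.30 against 4.02 expected fragments. Peaks were also narrower (median width 258 bp against 313 bp), and the summits of the clones lay 75 bp apart at the median, against 18 bp. The clones agreed to within 50 bp at 121 members (39.9%) and at 1691 co-bound peaks (80.3%).

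**Figure D1:**
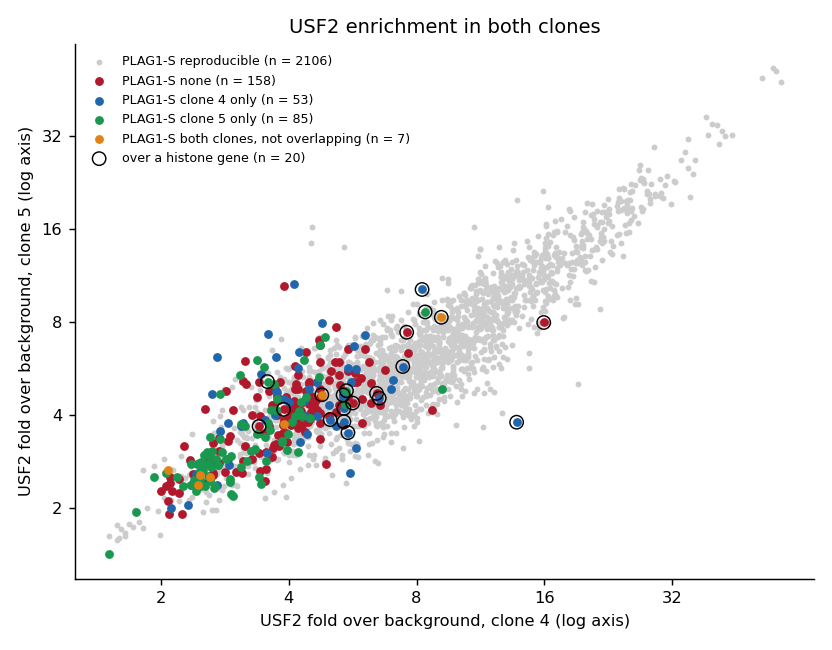
USF2 fold over local background in clone 4 (x axis) and clone 5 (y axis), both on log axes, for all 2409 reproducible USF2 peaks. Each point is a peak, grey for the 2106 co-bound peaks and coloured by the PLAG1-S class for the 303 members, and circles mark the 20 members over histone genes. Members crowd the lower left, and most of those that stand to the right of it are circled.

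The 2409 peaks were ordered by clone 4 fold and split into 10 groups of equal size. The share without a reproducible PLAG1-S peak was 45.2% in the weakest group (fold 1.51 to 3.33) and 34.9% in the next one. It was 13.7% in the fourth group, 2.08% in the sixth, and no member was found in the strongest group (fold 16.1 to 57.6). Of the 303 members, 12 had a fold above the median of all reproducible USF2 peaks (6.80), and 7 of these 12 overlapped a histone gene. Members reached a −log10 q of 10 or more in both clones in 19 cases (6.27%), against 1044 of the co-bound peaks (49.6%).

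**Figure D2:**
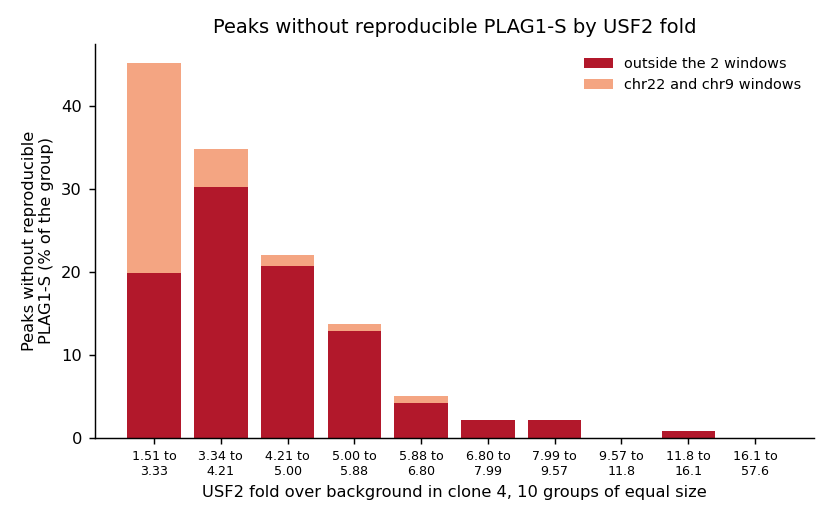
Share of the reproducible USF2 peaks without reproducible PLAG1-S (y axis, percent) in 10 groups of equal size by clone 4 USF2 fold (x axis, lowest and highest fold of each group). Dark bars count members outside the chromosome 22 and chromosome 9 windows and pale bars those inside. The bars fall from 45.2% to 0, and the pale part lies mostly in the weakest group.

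The absence of a reproducible PLAG1-S peak took 3 forms. No PLAG1-S peak of either clone lay within 100 bp of 158 members (52.1%). A further 138 (45.5%) had a PLAG1-S peak in 1 clone only, 53 of them in clone 4 and 85 in clone 5. At the other 7 members both clones had a PLAG1-S peak, but the peaks did not overlap each other. The PLAG1-S peaks called in clone 4 only had a median PLAG1-S fold of 4.16 (range 2.15 to 12.6). Those called in clone 5 only had a median of 3.20 (1.74 to 10.7). The median over the whole PLAG1-S list was 5.21 in clone 4 and 5.00 in clone 5. Beside co-bound USF2 peaks the median PLAG1-S fold was 19.02 in clone 4 and 14.6 in clone 5. USF2 itself had a median clone 4 fold of 4.02 at members with no PLAG1-S. It was 4.38 at those with PLAG1-S in clone 4 only, and 2.93 at those with PLAG1-S in clone 5 only. Local background differed between these classes, with clone 4 medians of 4.74, 4.52 and 11.5 expected fragments. Of the 85, 27 and 10 lay in the chromosome 22 and chromosome 9 windows described further on. The counts were 8 and 1 of the 53, and 24 and 6 of the 158. The part of background in these folds was not tested.

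The nearest reproducible PLAG1-S peak was within 1 kb of 70 members (23.1%), between 1 and 10 kb from 86, between 10 and 100 kb from 124, and farther than 100 kb from 18. The last 5 lay on scaffolds with no such peak. Members just outside the 100 bp limit included those nearest to PPIL2 and IGLL5 on chromosome 22, which lay 139 and 149 bp from PLAG1-S and had clone 4 USF2 folds of 3.32 and 2.51. The 3 co-bound peaks just inside it lay 74, 93 and 99 bp away, with clone 4 USF2 folds of 3.95, 4.63 and 3.52. Each of these clone 4 folds was above those of the members nearest to PPIL2 and IGLL5. In clone 5 the co-bound folds were 4.60, 3.58 and 2.16, in the same order, against 3.11 and 2.66 at these members. The last of the co-bound peaks was thus below both members in clone 5. Both members lay in the chromosome 22 window described further on, and the co-bound peaks on chromosomes 16 and X and a scaffold.

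Gene position was not used to choose the members and was compared by intervals that cover counting error only, since peaks are not replicates. A RefSeq gene start lay within 3 kb of 144 of 284 members on assembled chromosomes (50.7%) and of 1578 of 2074 co-bound peaks (76.1%). The difference, members minus co-bound peaks, was -25.4 percentage points (95% Newcombe interval -31.4 to -19.3). Among peaks with a fold at or below the median in both groups it was -18.4 points (-25.0 to -11.7). The groups still differed in strength there, with median clone 4 folds of 3.73 for members and 4.95 for co-bound peaks, scaffolds included. Starts of genes without a strand in the tables were taken at either end. A stricter threshold was a −log10 q of 10 or above in all 4 lists. There 28 USF2 peaks on these chromosomes had no reproducible PLAG1-S peak. The difference was 5.76 points with an interval that included 0 (-10.9 to 13.2). Of these 28, 18 were among the 303 members and 10 were co-bound peaks whose PLAG1-S peaks did not reach the threshold, and histone genes accounted for 8 of the 18 and 6 of the 10.

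The contrast was larger at coding genes. The start of a protein-coding gene was within 3 kb of 70 members (24.6%) and of 1376 co-bound peaks (66.3%). Summits over 3 kb from every gene made up 14.8% of members (42) and 8.73% of co-bound peaks (181), a difference of 6.06 points (95% Newcombe interval 2.18 to 10.8). Among peaks with a fold at or below the median that interval included 0 (4.17 points, -0.19 to 9.27). Pseudogenes held the summits of 54 members (19.01%) and of 55 co-bound peaks (2.65%), a pair of counts singled out after their values were seen. Between members with PLAG1-S in 1 clone (66 of 126, 52.4%) and members with none (73 of 151, 48.3%) the share at gene starts differed by 4.04 points, with an interval from -7.69 to 15.6 that included 0. With protein-coding genes alone the difference was 10.2 points (0.07 to 20.3). Members over histone genes, all within 3 kb of a coding start, were 11 of the 126 and 7 of the 151. Their part in this difference was not tested.

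The summit lay inside a coding gene at 127 members (44.7%) and 983 co-bound peaks (47.4%), and near a coding start the members were more often downstream of it than the co-bound peaks. Strand-aware starts were given for 82.0% of the coding genes on the chromosomes of the promoter table, and the following counts rest on those chromosomes and genes. Of 52 member summits within 3 kb of such a start, 40 (76.9%) lay downstream of it, and their median distance was 483 bp. Without the members over histone genes, 21 of 32 (65.6%) lay downstream, and the median distance was 1374.5 bp. Co-bound summits lay downstream in 391 of 1143 cases (34.2%), at a median distance of 116 bp. Within 100 bp of a start were 2 of 277 members (0.722%) and 532 of 2019 co-bound peaks (26.3%). Among co-bound peaks with a fold at or below the median the corresponding share was 14.9%, and 52.6% of their summits near a start were downstream. This measure was chosen after the positions of the histone members had been seen and was not tested.

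Histone genes supplied the strongest members. A group of 69 genes for the replication-dependent histones H1, H2A, H2B, H3 and H4, the proteins that package newly made DNA, was drawn up after their values had been seen and was not tested. USF2 peaks overlapped such genes in 32 cases, of which 20 (62.5%) were members. The members numbered 9 over H2B genes, 4 over H3, 3 over H2A, 2 over H4 and 2 over H1 genes, 16 on chromosome 6 and 4 on chromosome 1. At all 20 the summit lay inside the transcribed gene. The 18 with a known start had their summits between 235 and 435 bp downstream of it, and none upstream.

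At H3C13, an H3 gene on chromosome 1, the USF2 peak (149812903 to 149813650) had folds of 15.9 in clone 4 and 7.99 in clone 5, with 64 and 30 fragments, and no PLAG1-S peak in either clone. H2AC20, an H2A gene nearby, had folds of 13.8 and 3.80 with 61 and 15 fragments, and a clone 4 PLAG1-S peak with a fold of 6.13. In both genes clone 4 was the higher library, and the fold was lower in clone 5 at 15 of the 20 histone members. Over all members the fold was lower in clone 5 at 146 of 303 (48.2%). H1-2, a linker histone gene, had folds of 9.15 and 8.31, and each clone had a PLAG1-S peak there that did not overlap the other. H2BC5 had 8.38 and 8.65, H2BC8 had 8.24 and 10.2, and H2BC6 had 7.58 and 7.43, so that at these H2B genes the clones were close together. H2BC17 had 7.42 and 5.76. The lowest of the 20 was H2AC7, with 3.41 and 3.69.

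PLAG1-S was called in neither clone at 7 of the 20 histone members, in clone 4 alone at 8, in clone 5 alone at 3 and in both without overlap at 2. The clone 4 PLAG1-S folds at the 8 ran from 2.71 at H2BC13 to 6.13 at H2AC20. Co-bound USF2 peaks over histone genes numbered 12 and had a median clone 4 USF2 fold of 7.02, against 5.59 at the histone members. The summits of all 12 were also downstream of the start, between 177 and 678 bp from it with a median of 359 bp, against a median of 316 bp for the members. Of the 69 genes, 29 had a member within 3 kb of the start, 21 had a co-bound peak there, and 14 had both.

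Across all genes, 71 of 20037 protein-coding genes had a member within 3 kb of a start (0.354%) and 1576 had a co-bound peak there (7.87%). Of the 71, 29 were histone genes, 25 also had a co-bound peak, and 61 had a member outside the chromosome 22 and chromosome 9 windows. The genes that E-box factors are known for were not among them. No member lay at the start of any of 23 E-box binding bHLH-ZIP factor genes, 23 circadian clock genes, 46 lysosome and V-ATPase genes, 40 autophagy genes, 35 glucose and lipid metabolism genes or 37 erythroid and blood regulator genes. Co-bound USF2 peaks lay at 7, 8, 27, 11, 6 and 10 genes of the same lists. With a background of 0.354%, a count of 0 in lists of this size says little about the lists. USF2 with MAX, MLX and MGA (bHLH-ZIP factors), PER3 and CRY1 (clock), and LAMP1 and CTSD (lysosome) were among the genes with a co-bound peak and no member.

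Members lay inside 2 genes of these lists, away from the start, TAL1 of the blood list and PGAM1 of the glucose list. TAL1, a bHLH factor required for blood formation that itself binds E-boxes as a heterodimer, held a member (chromosome 1, 47219814 to 47219965) with folds of 4.61 and 4.11 and 21 and 18 fragments, 3572 bp from the nearer gene end. No PLAG1-S peak of either clone was within 100 bp of it. The clones were close in value at this site, at a fold slightly above the member median.

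Members also lay at other coding genes, and those in this paragraph, apart from ACTB, were picked after their values were seen. ACTB, which encodes cytoplasmic beta-actin, had a pair of them. The one inside the gene (chromosome 7, 5527621 to 5528568) had folds of 6.74 and 5.63, 38 and 31 fragments, and no PLAG1-S peak, although a reproducible PLAG1-S peak lay 506 bp from its edge. The other (5525726 to 5526148) lay outside the gene, 1228 bp from its end, with folds of 7.05 and 5.19, 35 and 24 fragments and a PLAG1-S peak in clone 4. ACTG1, the other cytoplasmic actin, had a member inside the gene with folds of 4.45 and 3.80 and 29 and 20 fragments. VIM, which encodes the intermediate filament protein vimentin, had 4.23 and 6.43, higher in clone 5. JUN, a subunit of AP-1, had 4.38 and 3.98, and PGAM1, a glycolytic enzyme, had 4.65 and 5.14 with its peak 911 bp from a gene end. ATF3, a stress-induced bZIP factor, held a pair of neighbouring members inside the gene, with clone 4 folds of 3.89 and 3.57. VIM and PGAM1 were thus higher in clone 5, and the others in clone 4 or nearly level. JUN and VIM had a PLAG1-S peak in clone 4 alone, and ACTG1 and PGAM1 had none in either clone. At ATF3 the first member had a PLAG1-S peak in each clone, not overlapping each other, and the second had one in clone 5 alone.

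At APLP2, which encodes a relative of the amyloid precursor protein, the member covered the start, with folds of 4.06 and 3.82 and 18 and 16 fragments, and the clone 5 library had a PLAG1-S peak overlapping it. At IL4I1 and NUP62, a secreted amino acid oxidase and a nuclear pore protein that share a start, the folds were 3.16 and 3.69, again with PLAG1-S in clone 5 alone. Both windows, printed above, lacked CACGTG. The clones differed little at either site.

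Duplicated gene families made up a further block, grouped after the values were seen by the nearest coding gene or the gene that held the summit. The NPIP and PKD1 families on chromosome 16, a gene family of segmental duplications and polycystin-1 with its pseudogene copies, accounted for 25 members of 31 reproducible USF2 peaks (80.6%), and 22 of the 25 had no PLAG1-S peak in either clone. Grouped in this way, members numbered 7 of 9 USF2 peaks for GOLGA6 and GOLGA8 and 6 of 8 for NBPF. They numbered 8 of 12 for GTF2I, TRIM73 and TRIM74, SPDYE and PMS2P, and 7 of 13 for GGT and BCRP. Together these families gave 53 members of 73 USF2 peaks (72.6%), and at 29 of the 53 the summit was inside a gene of the family. Of these 29, 22 belonged to NPIP and PKD1, 1 to GOLGA6 and GOLGA8, and 0 to NBPF. The NBPF members lay up to 25886 bp from the nearest coding gene end. Unplaced and unlocalized scaffolds gave another 19 of 51 (37.3%). Reads of 50 bases from near-identical copies cannot always be assigned to one copy, how such reads were handled is not given in the sources used here, and their part in these counts was not tested.

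In the NPIP and PKD1 group the clone 4 folds ran from 2.95 to 9.21 with a median of 4.52, and the clone 5 folds from 2.79 to 7.31. The highest was a member inside PKD1P5 (chromosome 16, 18390994 to 18392133), with folds of 9.21 and 4.87, 34 and 17 fragments, and a PLAG1-S peak in 1 clone. The member nearest to NPIPB4 (21877424 to 21878037) had 8.71 and 4.18, also about as unequal between clones. At NPIPB15 (74378548 to 74378916), in contrast, the folds were 7.63 and 6.38 and the summits of the clones 3 bp apart. PKD1 itself held 4 members within 2133372 to 2135857, with clone 4 folds between 3.88 and 5.18 and clone 5 folds between 3.71 and 4.39, all without PLAG1-S in either clone.

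Members were often neighbours. When members up to 10 kb apart were joined, 163 fell into 54 clusters and 140 stood alone. The largest clusters held 10 members each, 1 of them in PKD1P2 beside NPIPA7 on chromosome 16 (16368065 to 16377506) and the other at FIBCD1 and QRFP on chromosome 9 (130895478 to 130942315). In the PKD1P2 cluster the strongest clone 4 folds were 6.18 and 6.04, with clone 5 folds of 5.96 and 6.57. Neighbouring peaks of 1 cluster share sequence context and local background and do not count as separate observations.

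By chromosome, the share of USF2 peaks that were members ran from 0 of 62 on chromosome 4 and 0 of 41 on chromosome 14 (95% Wilson upper bounds 5.83% and 8.57%) to 69 of 178 on chromosome 22 (38.8%). Chromosome 16 had 31 of 154 (20.1%), chromosome 21 had 13 of 52 (25.0%), chromosome 15 had 14 of 69 (20.3%) and chromosome 6 had 21 of 109 (19.3%). On chromosome 17 the share was 5 of 158 (3.16%) and on chromosome 12 it was 2 of 120 (1.67%).

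The windows from 19 to 24 Mb of chromosome 22 and the 2 Mb of chromosome 9 that begin at 130 Mb contain BCR and ABL1, which are fused and amplified in K562 cells. In the chromosome 22 window 59 of 121 reproducible USF2 peaks were members (48.8%, 95% Wilson interval 40.0% to 57.6%), and in the chromosome 9 window 20 of 53 (37.7%, 25.9% to 51.2%). Outside both windows the count was 224 of 2235 (10.0%, 8.85% to 11.3%). The rest of chromosome 9 gave 3 of 83 (3.61%) and the rest of chromosome 22 gave 10 of 57 (17.5%).

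Local background was high in both windows. The median expected number of fragments at member summits in clone 4 was 10.9 in the chromosome 22 window and 18.2 in the chromosome 9 window, against 4.53 outside. The number of USF2 fragments was higher as well, with medians of 37, 47.5 and 23. The resulting clone 4 folds were low, with medians of 2.79, 2.47 and 4.14. Co-bound peaks in the windows had the same high background, 13.2 and 16.8 expected fragments, with median folds of 3.28 and 2.78. The part of the high background in the share of members was not tested.

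The classes of PLAG1-S were counted apart for the windows. In the chromosome 22 window 24 members had no PLAG1-S peak, 8 had one in clone 4 and 27 in clone 5, and in the chromosome 9 window the counts were 6, 1 and 10, with 3 more in both clones without overlap. Outside they were 128, 44, 48 and 4. Within the windows members lay within 3 kb of a gene start in 39.2% of cases, and outside in 55.1%.

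The member with the largest clone 4 fold in the chromosome 22 window (21280711 to 21281136, nearest to FAM246A) had folds of 6.26 and 4.39, with 55 and 37 fragments over 7.95 and 7.65 expected. A member in the pseudogene E2F6P2, nearest to LRRC74B, had 5.90 and 5.29 with 68 and 51 fragments, and one in PI4KAP2, nearest to TMEM191C, had 5.61 and 5.12. These sites, chosen by their clone 4 fold, were higher in clone 4 than in clone 5, by less than the gap seen at H3C13. Over all 59 members of the window the median fold was 2.79 in clone 4 and 3.08 in clone 5. TMEM191C was the nearest coding gene of 9 members, LRRC74B of 8, IGLL5 of 5, GNAZ and FAM246A of 4 each, and BCR of 3. BCR members had clone 4 folds between 2.18 and 3.09.

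In the chromosome 9 window the strongest member was inside AIF1L (131100739 to 131100904), with folds of 3.11 and 2.60 and 60 and 48 fragments over 18.6 and 17.8 expected. LAMC3, which encodes a laminin chain, was nearest to 4 members, the strongest with folds of 2.96 and 2.19. FIBCD1 was nearest to 9 members and ABL1 to 3. A member inside NUP214, a nuclear pore gene, had 2.68 and 2.36. Folds in this window spanned a narrow range in both clones, and no member there reached the median fold of the members outside it in clone 4.

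When the windows, histone genes, duplicated families and scaffolds were all set aside, 135 members of 2083 USF2 peaks were left (6.48%). Of these 135, 75 had no PLAG1-S peak in either clone, 28 had one in clone 4, 30 in clone 5 and 2 in both without overlap. Their clone 4 folds ran from 1.75 to 7.05 with a median of 3.91. A coding gene start was within 3 kb of 27 of them and a start of any gene of 61, and 31 summits were over 3 kb from every gene. Besides the genes named above, CHAC1 (which encodes a glutathione-degrading enzyme, folds 3.08 and 3.70), EHD1 (an endocytic recycling protein, 3.51 and 3.87) and ADGRE5 (an adhesion receptor of leukocytes, 4.65 and 4.13) had a member near a start. Among those far from starts, a member inside EXD3 on chromosome 9 (137355313 to 137355822) had folds of 5.18 and 7.71 with 22 and 28 fragments, and a member inside INSR, the insulin receptor gene, had 5.40 and 4.79 with PLAG1-S in clone 4. CHAC1 and EHD1 had a PLAG1-S peak in clone 4 alone, and ADGRE5 and EXD3 had none in either clone. Apart from EXD3, these examples were picked after their values were seen.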

How the data were processed

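Peaks of 4 immunoprecipitated libraries, PLAG1-S and USF2 in each of clones 4 and 5, were analysed; the 2 inputs were used by the authors as merged background and were not analysed here. Per the labels, libraries were sequenced as 50-base single-end reads, and the submitters' processing notes name cutadapt, FastQC, HISAT2 2.0.4, SAMtools, MACS2, bedtools and HOMER with hg38; the MACS2 version and the handling of reads that map to several places are not given in the sources used here. The authors called peaks per library with MACS2, so clones were not pooled. The deposited score column follows the q-value, the deposited fold is the ratio of summit fragments plus 1 to local background plus 1, and the authors deposited Poisson p- and q-values at the summit as −log10. These columns are relative to each library's own background, and a missing peak may be a site below the authors' threshold, which was looser for USF2 (0.05 in the peak names) than for PLAG1-S. The depth behind each value was taken as the fragments at the summit, recovered from fold and −log10 p with a tolerance of 0.001 on the −log10 p, which succeeded in both clones for all 303 members.

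Where several clone 5 peaks overlapped a member, the one with the largest fold was used. Genes (59679 on chromosomes 1 to 22, X and Y) and promoter windows came from RefSeq tables of GRCh38.p14, and sequences from the same promoter table. Strand-aware starts were given for 27303 genes, and either end was used for the other 32376. No genome sequence was used, so motifs at the summits of other peaks were not read. Shares carry 95% Wilson intervals and differences of shares 95% Newcombe intervals, computed with Python 3.11.15, numpy 2.4.6, pandas 2.3.3 and scipy 1.17.1 and tested on simulated data. Peaks are not replicates, and with 2 clones per factor no test used the spread between clones. Both factors were precipitated from each cell line, as the labels state, so the clone number pairs the USF2 and PLAG1-S libraries.

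The members, the gene lists and the comparisons were chosen with earlier results of these data known. Named genes are those nearest to the 10 members with the largest clone 4 fold and the 5 with the largest clone 5 fold without PLAG1-S in either clone, the 5 with the largest clone 4 fold with PLAG1-S in 1 clone, the 5 in each window, and list genes with a member within 3 kb of a start. Histone genes, duplicated families and the other genes were added after their values were seen. Alternatives changed the q threshold, overlap, coordinates, distance, gene set, width and clones used. The values of 1 member near the distance limit are not reported here.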

Additional observations from a re-analysis of the deposited data

How the results depend on the processing

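The share of USF2 peaks without a reproducible PLAG1-S peak (12.6%) depended on the definitions. It was 3.10% with a −log10 q of at least 10, 14.1% with 50% reciprocal overlap between clones, 6.56% when a PLAG1-S peak of either clone removed a member, 10.0% without the amplified windows, 9.67% with 1000 bp and 21.4% with 100 bp between summits. It was 6.48% without windows, histone genes, duplicated families and scaffolds, a setting added after seeing the data. With 1 clone alone, where weak peaks need no second clone, it was 37.5% to 40.1%. The replicate block, which is the mean of these single-clone values, gave 38.8%. The other 3 settings gave 12.0% to 13.0%.

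The difference in the share at gene starts kept its sign and an interval without 0 in 16 of 17 settings (-41.7 to -16.3 points). These include the replicate block (-31.2 points), which averages the single-clone settings and is no separate check. The difference turned to 5.76 points with a −log10 q of at least 10. The difference in the share outside all genes kept its sign and an interval without 0 in 12 of 14 settings (5.45 to 27.7 points), again with the replicate block among them. It turned to -2.67 points with a −log10 q of at least 10, an interval that included 0, and was 4.17 points among peaks with a fold at or below the median. The difference between members with PLAG1-S in 1 clone and with none was 10.2 points with protein-coding genes only. That interval, with histone members included, lay just above 0. In the other settings the interval included 0. The causes of these changes were not tested. The planned motif comparisons were not run, since 12 members met a promoter window and 20 were required. A PLAG1-S site below the authors' threshold cannot be told apart from an unbound one in these lists.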
